A study of Homo sapiens with 16 samples.

Results

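The genes described here are 10 members of the integrated stress response. They encode the transcription factors ATF4, ATF5, CEBPB, CEBPG and DDIT3 (CHOP), the amino acid enzyme ASNS, and the downstream effectors TRIB3, CHAC1, SESN2 and DDIT4. They were chosen by gene symbol, and each was represented by 1 row of the array table, so that 10 genes of 18190, in 10 of 20589 rows, are described. RNA came from MCF-10A cells, a nontransformed human mammary epithelial line, grown in medium with insulin, hydrocortisone and epidermal growth factor. The 0 h array held RNA of untreated cells, and the other 15 arrays held RNA of cells kept in 1 µM CP724,714, a small molecule inhibitor of the HER2 kinase, for 3 to 45 h. Cells were harvested every 3 h from parallel cultures, with 1 Illumina bead array per time point, to follow expression after the loss of HER2 signaling. The study's methods also describe a change of medium when the inhibitor was added. No second culture at any time point and no uninhibited time course were analysed here, so inhibitor, fresh medium and time in culture cannot be told apart.

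In the integrated stress response, several kinases that sense amino acid shortage, unfolded protein in the endoplasmic reticulum or other stresses phosphorylate the initiation factor eIF2alpha. General translation falls, while translation of ATF4 mRNA rises. ATF4 then binds with C/EBP partners to composite C/EBP-ATF elements and switches on genes of amino acid synthesis and transport, and, with DDIT3, genes that restrain growth or promote cell death. Because ATF4 is controlled largely at translation, its mRNA level need not follow its protein, which was not measured here.

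The core of the C/EBP-ATF element was looked for to show what these genes share in sequence that their choice by name did not use. The letters TGATGNAA were searched on both strands of RefSeq promoter windows (GRCh38.p14) from 250 bases before to 50 bases after each annotated start. All 10 genes were in the table, and 3 of them, ASNS, CHAC1 and CEBPG, held the core, against 3.62% of all 35116 windows and 4.46% of all 27305 genes. The 10 genes had 19 windows between them, so that several had more than 1 chance of a match. The 3 matches are shown in the direction of each gene with the core in capitals; in CHAC1 the core lies on the opposite strand.
ASNS: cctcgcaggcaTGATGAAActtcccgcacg
CHAC1: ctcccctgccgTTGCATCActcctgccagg
CEBPG: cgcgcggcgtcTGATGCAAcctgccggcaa
The ASNS stretch lies at chr7:97872458-97872487 on the minus strand, and its core begins 68 bases before an annotated start inside the span of the gene. The CHAC1 stretch lies at chr15:40953251-40953280 on the plus strand, upstream of the gene, with the core 209 bases before the start. The CEBPG stretch lies at chr19:33374060-33374089 on the plus strand, 42 bases before an annotated start inside the span of the gene. Whether the stretches inside ASNS and CEBPG are exonic or intronic is not given in the tables used here. A match of letters is a description and not a binding site.

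Intensities were corrected for background, quantile normalized and are given as log2 normalized intensity. Of the 10 rows, 9 were above background (detection p under 0.05) on at least 3 arrays and were tested together with 11957 rows in all. CHAC1 was above background only at 0 h and was not tested. SESN2 was above background on 10 arrays, and the other 8 genes on all 16. The ATF4 row does not behave as a single probe in its detection p-values, and its value is taken as deposited. Median intensity was between 210.4 and 253.9 on the 16 arrays, between 10325 and 10889 rows were above background, and the correlation between arrays was between 0.976 and 0.996. The 0 h array had the lowest mean correlation with the others, and it is the only untreated array, so the tests, likenesses and gene lists that use it are also given without it. Of 9 mammary epithelial marker genes, 7 were above background on every array. Among the 8 that were tested in limma, 4 rose at 36 to 45 h against 0 to 9 h, against 16.2% of all rows called higher. Of these, ITGB4 rose by a log2 change of 1.24 (adjusted p = 1.5e-06). The basal marker TP73L was above background on all 4 arrays at 36 to 45 h and on none at 0 to 9 h. Its rise is therefore only a bound, of at least 2.55-fold. KRT17 rose by 0.69 (adjusted p = 0.042) and KRT18 by 0.26 (adjusted p = 0.033). Without the 0 h array 2 of the 8 rose, against 18.2% of all rows. Of 12 markers of fibroblasts, endothelium, blood and fat, none was above background on all arrays, and 8, with 3 collagen genes, VWF and CD3E among them, were on none. Of the 4 tested, PECAM1 rose by 0.84 over that span (adjusted p = 0.00030 in limma). CD14, above background on all 4 arrays at 36 to 45 h and on none at 0 to 9 h, has only a bound, of at least 2.74-fold. The summed intensity of the list lay between 3112 and 3315 at 0 to 9 h and between 2983 and 3333 at 36 to 45 h. The part of these markers in the late changes below was not tested.

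Within the first 3 h, 4 genes fell steeply from the untreated level. DDIT3, the CHOP transcription factor that is induced by prolonged stress, was at 11.37 at 0 h, 8.59 at 3 h, 7.66 at 6 h and 8.07 at 9 h. Its level at 0 h was 6.85-fold above that at 3 h and 13.02-fold above the lowest point at 6 h. That range over the 16 arrays was wider than in 99.8% of the tested rows. DDIT4, an inhibitor of the growth kinase complex mTORC1 that is also known as REDD1, was at 15.53 at 0 h and 14.43 at 3 h, a 2.14-fold difference, and then lay between 14.56 and 14.99 at every later time. SESN2, a leucine sensor that also restrains mTORC1, was at 8.02 at 0 h and was not above background at 3, 6 or 9 h. Its level at 0 h was at least 3.58-fold above that at 3 h. CHAC1, an enzyme that degrades glutathione, was at 7.24 at 0 h and not above background on any later array, which gives a level at 0 h at least 2.17-fold above the mean of 3 to 45 h. These are values of single arrays, with no replicate check.

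**Figure D1:**
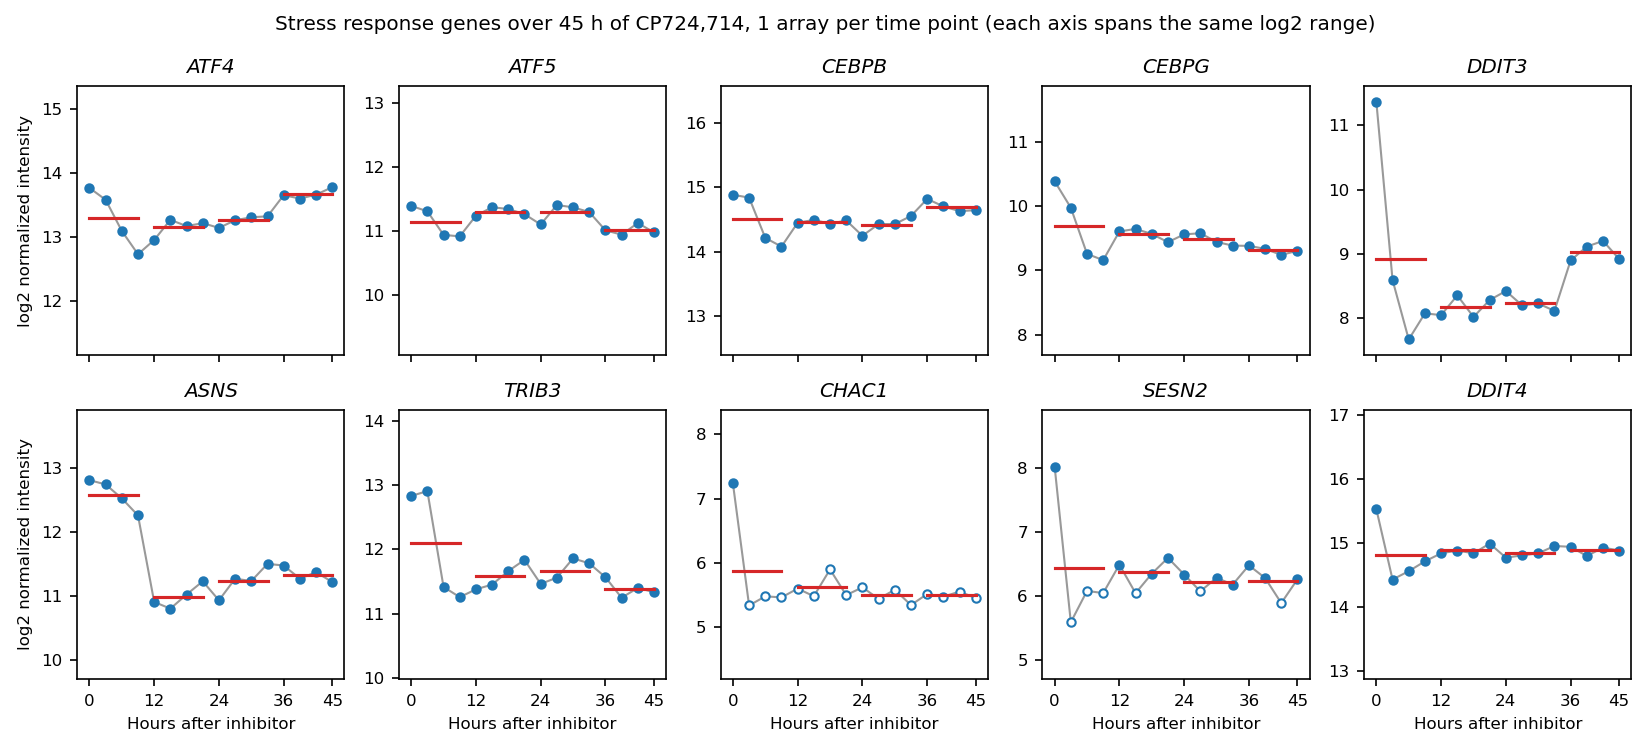
Log2 normalized intensity (y axis) against hours after inhibitor (x axis) for each of the 10 genes; each point is 1 array, open points are not above background, and red lines are the means of 4 consecutive time points. DDIT3, DDIT4, SESN2 and CHAC1 drop by 3 h, TRIB3 at 6 h and ASNS at 12 h, and ATF4, DDIT3 and CEBPB lie above their 24 to 33 h values from 36 h.

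Across all tested rows, 2.49% were at least 1.7-fold lower at 3 h than at 0 h, and 3 of the 9 tested genes (DDIT3, DDIT4 and SESN2) were among them. Between 3 and 6 h the share was 3.5%, and TRIB3 and DDIT3 passed that limit. Between 9 and 12 h it was 3.08%, and only ASNS passed it. Between 33 and 36 h, 3.41% of the rows were at least 1.7-fold higher, with DDIT3 as the only one of the 9. In the other 11 steps between neighbouring arrays none of the 9 changed that much in either direction. The 1.7-fold limit carries no test.

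**Figure D2:**
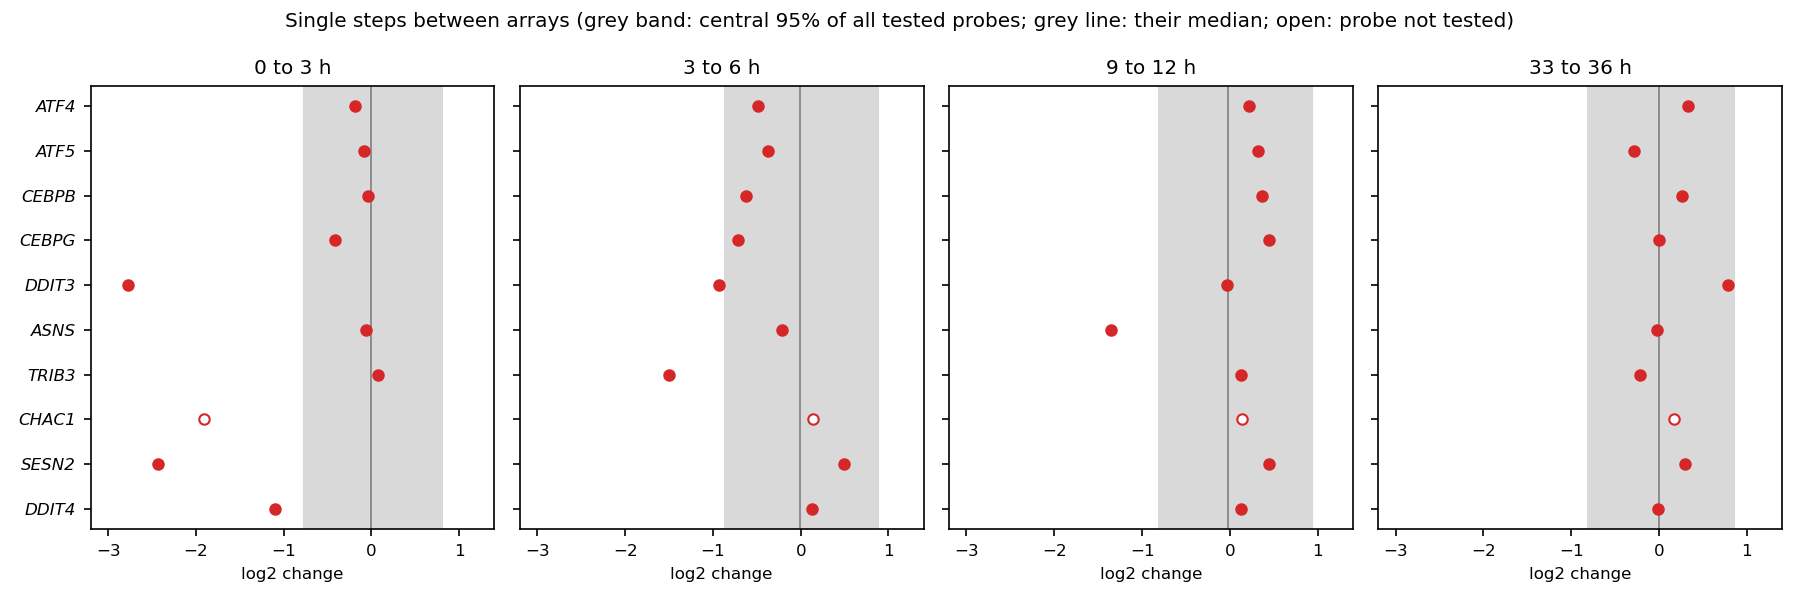
Log2 change (x axis) between neighbouring arrays for each gene (y axis); the grey band holds the central 95% of all tested rows and the grey line is their median. DDIT3, SESN2, CHAC1 and DDIT4 lie left of the band from 0 to 3 h, TRIB3 and DDIT3 from 3 to 6 h and ASNS from 9 to 12 h, while every gene lies within it from 33 to 36 h.

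The second step came between 3 and 6 h. TRIB3, a pseudokinase that is induced by ATF4 and DDIT3 and binds AKT, was at 12.83 at 0 h and 12.91 at 3 h, and then at 11.42 at 6 h and 11.26 at 9 h. It fell 2.82-fold between 3 and 6 h and stayed between 11.25 and 11.86 on every later array, with no overlap with 0 and 3 h. ATF4 was at 13.76, 13.58, 13.09 and 12.73 at 0, 3, 6 and 9 h. CEBPB, a C/EBP factor of epithelial and inflammatory gene expression, was at 14.89, 14.84, 14.21 and 14.08 at the same times. CEBPG, a partner with which ATF4 forms heterodimers, was at 10.39, 9.98, 9.26 and 9.16. ATF4, CEBPB and CEBPG each had their lowest value of the 16 at 9 h, as did ATF5, a close relative of ATF4, at 10.92 after 11.40 at 0 h.

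The contrast of 6 and 9 h with 0 and 3 h covers these first hours. Of the 9 tested genes, limma called 7 lower and none higher (adjusted p below 0.05), whereas it called 24.7% of all tested rows, 11.5% lower and 13.2% higher. The median log2 change of the 9 genes was -0.74, and that of all rows was -0.01. TRIB3 changed by -1.54 (SE 0.10, adjusted p = 1.3e-07), CEBPG by -0.97 (SE 0.13, adjusted p = 5.2e-05), ATF4 by -0.76 (SE 0.11, adjusted p = 0.00013) and CEBPB by -0.72 (SE 0.07, adjusted p = 5.1e-06). ATF5 changed less, by -0.42 (SE 0.10, adjusted p = 0.0063). In each of these genes both later values lay below both earlier ones. The share of all rows with this separation was not counted, so it does not set these genes apart. DDIT3 changed by -2.11 (SE 0.52, adjusted p = 0.0064), and by -0.72 (adjusted p = 0.026) without the 0 h array, or by -3.50 without the 3 h array. ASNS changed by -0.38 (adjusted p = 0.0405), a call that was lost without the 0, 3, 9, 12 or 15 h array (log2 change -0.25 without 9 h). DDIT4 did not pass, with a change of -0.34 (adjusted p = 0.25). Without the 3 h array, which leaves 0 h alone as the earlier side, its change was -0.89 and passed, and without the 0 h array it was 0.21, in the other direction, and did not pass. SESN2 did not pass either (adjusted p = 0.28). Since it was not above background at 6 or 9 h it has only a bound, with 0 h at least 3.71-fold above 6 and 9 h, and without the 0 h array none of its arrays in this contrast was above background. In a fit of the 4 compared arrays alone, with 2 against 2, 4 of the 9 fell (ATF4, TRIB3, CEBPB and CEBPG), against 7.38% of all rows called.

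**Figure D3:**
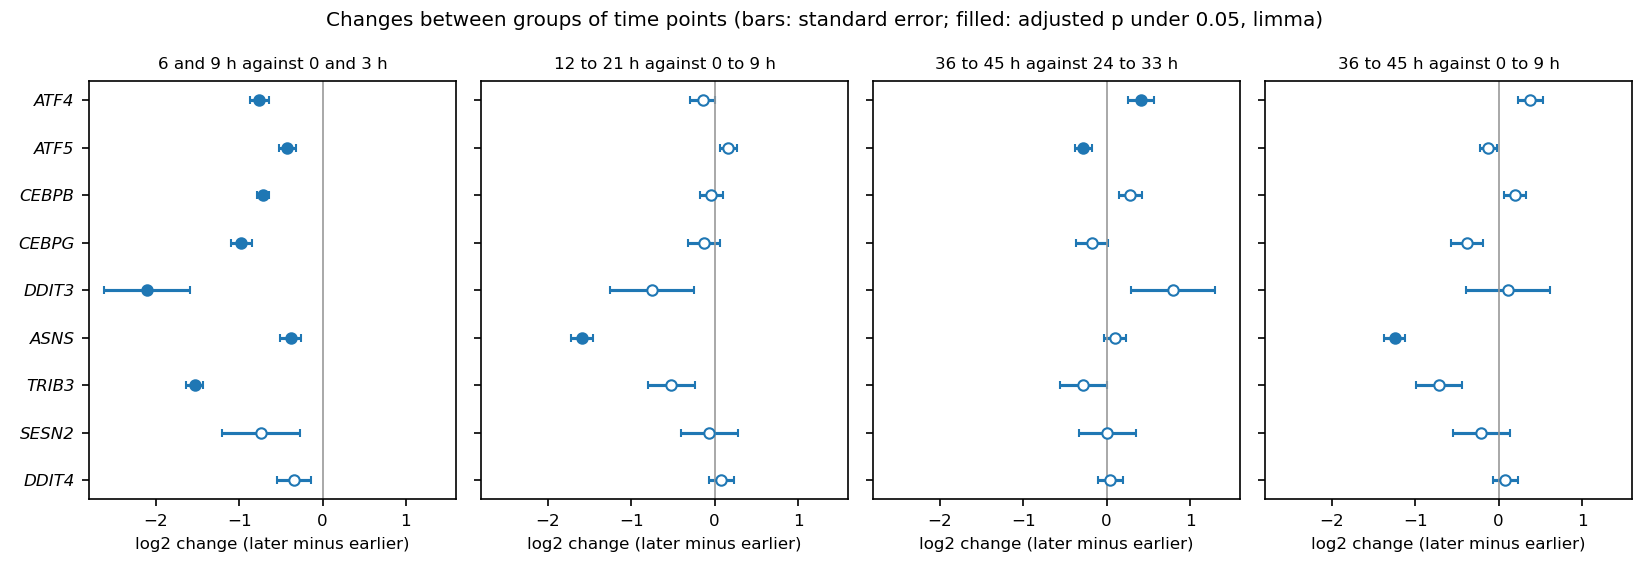
Log2 change (x axis, later minus earlier) with its standard error for the 9 tested genes (y axis) in 4 comparisons of time points; filled points have an adjusted p under 0.05 in limma. Filled points lie left of 0 for 7 genes at 6 and 9 h, for ASNS alone at 12 to 21 h, and for ASNS alone at 36 to 45 h against 0 to 9 h, and at 36 to 45 h against 24 to 33 h for ATF5, with ATF4 filled on the right; SESN2 was not above background at 6 or 9 h.

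ASNS, which makes asparagine from aspartate and glutamine and is a standard reporter of ATF4 activity, had a course of its own. It was at 12.81, 12.74, 12.52 and 12.26 at 0, 3, 6 and 9 h, and dropped 2.55-fold to 10.91 at 12 h. From there it stayed between 10.80 and 11.50 to the end, with every array from 12 to 45 h below every array from 0 to 9 h. That separation was seen in 2.83% of all tested rows and in no other of the 9 genes. The mean of 12 to 21 h was 3.01-fold below that of 0 to 9 h, a log2 change of -1.59 (SE 0.13, adjusted p = 4.2e-07 in limma). ASNS was the only 1 of the 9 called in this contrast, in which 29.5% of all rows were called, 14.4% lower and 15.1% higher. The other changes were between -0.75 (DDIT3, adjusted p = 0.29) and 0.16 (ATF5, adjusted p = 0.25). The counts depended on the first arrays. Without the 0 h array DDIT4 also rose (log2 change 0.32), against 29.4% of all rows called. Without 6 h TRIB3 (-0.75) also fell, against 27.8% of all rows. Without 9 h TRIB3 (-0.80) and ATF4 (-0.33) also fell, against 35.9%. SESN2 also passed without the 0 h array, but as a bound, at least 1.17-fold higher at 12 to 21 h, since none of the 3 earlier arrays left was above background and 3 of the 4 later ones were. With median scaling in place of quantile normalization ATF5 also rose (0.35), so that 1 gene rose and 1 fell. At 36 to 45 h ASNS was still 2.37-fold below 0 to 9 h, a log2 change of -1.25 (SE 0.13, adjusted p = 1.8e-06).

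**Figure D4:**
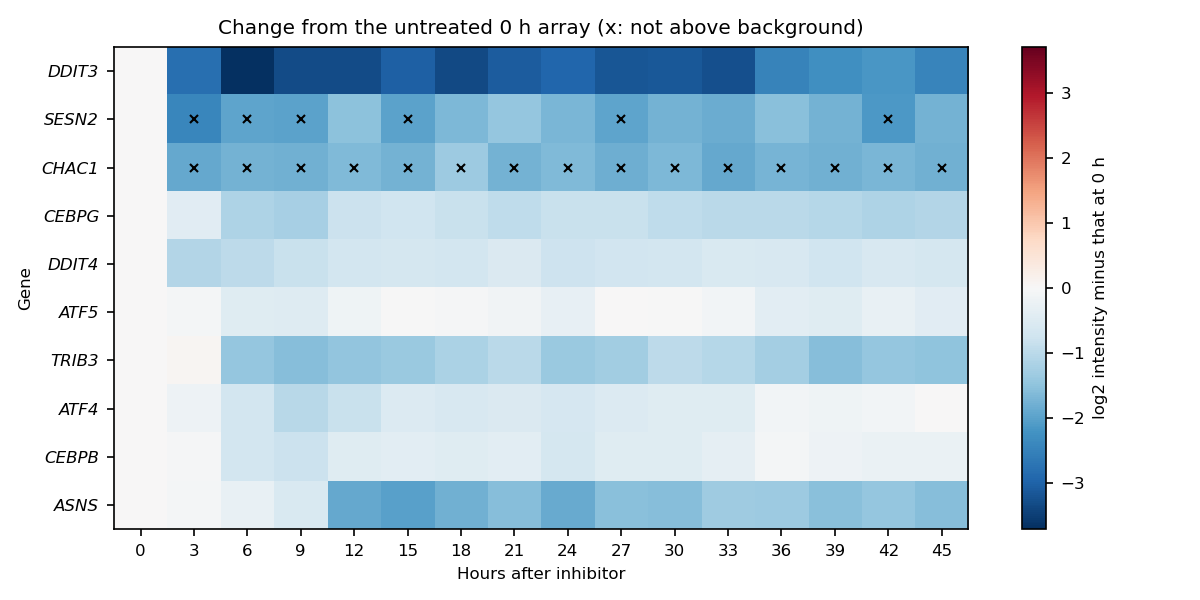
Log2 intensity minus that of the untreated 0 h array (colour) for each gene (rows) at each time after inhibitor (columns, hours); crosses mark arrays where the gene was not above background. DDIT3 is the darkest at 6 h, ASNS turns dark at 12 h, and ATF4 is back near its 0 h level from 36 h.

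Between 12 and 33 h no change of the 9 genes passed the test. None was called at 24 to 33 h against 12 to 21 h in limma's test, and since 0.0251% of all rows were called, this count does not set the genes apart. At an unadjusted p under 0.05 none of the 9 passed either, and ASNS came nearest (unadjusted p = 0.074 in limma). ASNS was lowest at 10.80 at 15 h and reached 11.50 at 33 h, with means of 10.99 ± 0.18 and 11.24 ± 0.23 (SD over 4 consecutive time points). ATF4 had means of 13.15 ± 0.14 and 13.26 ± 0.08 and DDIT3 of 8.17 ± 0.17 and 8.24 ± 0.13. DDIT4 had the narrowest spread, with an SD of 0.07 over the 12 arrays from 12 to 45 h.

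At 36 to 45 h against 24 to 33 h, ATF4 rose and ATF5 fell, and the other 7 tested genes did not pass. ATF4 was at 13.65, 13.60, 13.66 and 13.78 at 36, 39, 42 and 45 h, after values between 13.14 and 13.32 at 24 to 33 h, and its highest value of the 16 was that at 45 h. The change of 0.41 (SE 0.15) had an adjusted p of 0.0390 in limma. DDIT3 was between 8.89 and 9.20 at 36 to 45 h against between 8.11 and 8.42 at 24 to 33 h. CEBPB was between 14.63 and 14.82 against between 14.25 and 14.55. For ATF4, DDIT3 and CEBPB the 4 late arrays lay above the 4 before them with no overlap, as did those of 22.2% of all tested rows. The changes of DDIT3 (0.79, SE 0.50, adjusted p = 0.24) and CEBPB (0.29, SE 0.13, adjusted p = 0.11) did not pass. The spread used for DDIT3 includes that of 0 to 9 h, and without the 0 h array both passed, at an adjusted p of 0.00054 for DDIT3 and 0.048 for CEBPB. That fit called 4 of the 9 genes, against 42% of all rows. ATF5 went the other way, to between 10.95 and 11.13 from between 11.11 and 11.41, a change of -0.28 (SE 0.10, adjusted p = 0.0391). CEBPG lay lower on all 4 late arrays, with a change of -0.18 (SE 0.19, adjusted p = 0.51), and 22.6% of all rows had such a separation.

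The late calls were close to the threshold. In this contrast 2 of 9 genes were called, 1 in each direction, while 38% of all rows were called, 19.3% higher and 18.7% lower. The ATF4 call was lost without any 1 of the 8 arrays compared, with adjusted p-values up to 0.10, and the ATF5 call without the 27, 30, 33, 36, 39 or 45 h array, with adjusted p-values up to 0.11. With median scaling only ATF5 was called, and with cyclic loess normalization ATF4 and CEBPB rose and none fell. In a fit of the 8 compared arrays alone, ATF4, DDIT3 and CEBPB rose and ATF5 and TRIB3 fell, 5 of 9 against 48.6% of all rows called.

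Over the whole course, a spline of time called 6 of the 9 genes at an adjusted p under 0.05, against 54.6% of all tested rows. ASNS (adjusted p = 7.0e-06), ATF4 (0.00058), TRIB3 (0.0010), DDIT3 (0.0097), CEBPG (0.020) and CEBPB (0.029) passed. SESN2 (0.37), DDIT4 (0.67) and ATF5 (0.22) did not. Without the 0 h array TRIB3 (adjusted p = 0.054), CEBPB (0.093) and CEBPG (0.38) no longer passed and DDIT4 did (0.00034). Without the 3 h array CEBPB (0.053) and CEBPG (0.093) were lost and SESN2 passed (0.022). The untreated array was the highest of the 16 in 6 of the 9 genes, as in 12.5% of all rows, and 0 and 3 h were the 2 highest in 4 (ASNS, TRIB3, CEBPB and CEBPG), as in 8.32%. The lowest array was that at 6 or 9 h in 5 of the 9, as in 14.7% of all rows.

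The end of the series was compared with its start by setting 36 to 45 h against 0 to 9 h. ASNS alone was called, against 31.2% of all rows, 16.2% higher and 15% lower. TRIB3 changed by -0.72 (SE 0.28, adjusted p = 0.060) and ATF4 by 0.38 (SE 0.15, adjusted p = 0.066). These values depended on which early arrays were used, since the first 4 spanned the steepest changes. Without the 0 h array ATF4 (0.54), DDIT3 (0.92), DDIT4 (0.32) and CEBPB (0.32) also rose, against 36.2% of all rows called. Without 3 h ATF4 (0.48) also rose, against 29.5%. Without 6 h or 9 h TRIB3 (-0.95 or -1.0) and CEBPG (-0.53 or -0.56) also fell, against 28% or 32.2%. With 0 and 3 h set against 42 and 45 h, 5 genes fell, ASNS, TRIB3 (-1.51), CEBPG (-0.91), ATF5 (-0.30) and CEBPB (-0.23), against 30.3% of all rows called. By level, DDIT3 at 45 h was still 5.46-fold below 0 h, while the ratio of 0 h to 45 h was 0.99 for ATF4.

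The members can also be described by how alike their courses were. Over the 16 arrays ATF4 and CEBPB had a Pearson r of 0.89, DDIT4 and SESN2 of 0.88, and ATF4 and DDIT3 of 0.71. Without 0 and 3 h, over 14 arrays, ATF4 with CEBPB was at 0.87 and ATF4 with DDIT3 at 0.83, while DDIT4 with SESN2 was at 0.34. ATF4 with its target ASNS was at 0.15 over 16 arrays, -0.27 over 14 and 0.61 over the 12 from 12 h on, so that its sign depended on the arrays used. Over the same 12 arrays ATF4 with CEBPB was at 0.81 and ATF4 with DDIT3 at 0.88, and DDIT4 with SESN2 was at 0.11. These values describe arrays that follow each other in time and are not independent samples.

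The rows most like each gene over the 16 arrays were named in the same way. For ASNS they were IL1A (r = 0.965), PHGDH (0.962), the entry enzyme of serine synthesis, and PCK2 (0.957), a mitochondrial enzyme of gluconeogenesis. For DDIT3 they were the immediate early gene FOS (0.949), the phosphatase DUSP10 (0.940) and HERPUD1 (0.936), which takes part in degradation of endoplasmic reticulum protein. For DDIT4 they were NFIL3 (0.929), SGK (0.903), a kinase gene induced by glucocorticoid, and PPM1D (0.893). For ATF4 PAIP2 (0.953) came first, for CEBPB the phosphatidate phosphatase LPIN1 (0.954), for TRIB3 HES6 (0.924), for CEBPG C20orf29 (0.929), for ATF5 SARS2 (0.899) and for SESN2 FAM46A (0.880). Over the 15 arrays without 0 h, the r of FAM46A with SESN2 was 0.333, that of SGK with DDIT4 0.734 and that of PPM1D with DDIT4 0.763. For DDIT3 that of FOS was 0.889, of DUSP10 0.871 and of HERPUD1 0.954, and for DDIT4 that of NFIL3 was 0.864. The other rows named here were between 0.845 (C20orf29 with CEBPG) and 0.962 (IL1A with ASNS).

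A list of 38 other known ATF4 or CHOP target genes was followed beside the members, of which 34 were tested. At 6 and 9 h against 0 and 3 h, 18 of the 34 fell and 1 rose, against 11.5% lower and 13.2% higher over all rows, with a median log2 change of -0.37 against -0.01. Without the 0 h array 15 fell and none rose, with a median of -0.29, against 8.03% lower and 9.79% higher. At 12 to 21 h against 0 to 9 h, 12 fell and none rose, against 14.4% and 15.1% of all rows, and without the 0 h array 11 fell and 2 rose. At 36 to 45 h against 0 to 9 h, 16 fell and 2 rose, against 15% and 16.2% of all rows, with a median of -0.36, and without the 0 h array 14 fell and 3 rose, with a median of -0.25. The largest of these last changes were in PSAT1, an enzyme of serine synthesis (-1.56, SE 0.16, adjusted p = 1.8e-06), and in SLC7A5 (-1.33, SE 0.09, adjusted p = 4.5e-08) and SLC3A2 (-1.23, SE 0.08, adjusted p = 2.6e-08), the light and heavy chains of a large neutral amino acid transporter. SLC3A2 stepped down where ASNS did, from 12.11 at 9 h to 11.32 at 12 h, and the untreated array was the highest of the 16 in 20 of the 34. The counts against 0 to 9 h include SLC7A11, above background on 4 arrays, with means of 5.72 at 12 to 21 h and 5.66 at 36 to 45 h. The count at 6 and 9 h includes KLHL24, above background on 8 arrays, at 5.41 and 5.54 at those times. The lowest detected level was between 6.07 and 6.19 on the 16 arrays, so these falls are only bounds.

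Some genes outside that naming rule were picked after their values were seen, because like DDIT3 they fell from a high untreated level. GDF15, a secreted stress factor, was at 11.97 at 0 h, 10.63 at 3 h and 8.20 at 9 h. NUPR1, listed as P8 and coding for a stress-induced chromatin protein, was at 13.19 at 0 h, 12.69 at 3 h and 8.64 at 12 h. PPP1R15A, which brings a phosphatase to eIF2alpha, was at 12.64 at 0 h, 12.30 at 3 h, 9.99 at 12 h and 11.58 at 45 h. Most of the fall of DDIT3 came by 3 h, and most of the fall of these genes came later. At 45 h GDF15 was at 9.88 and NUPR1 at 11.16. No p-value is given for these genes because of how they were picked.

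**Figure D5:**
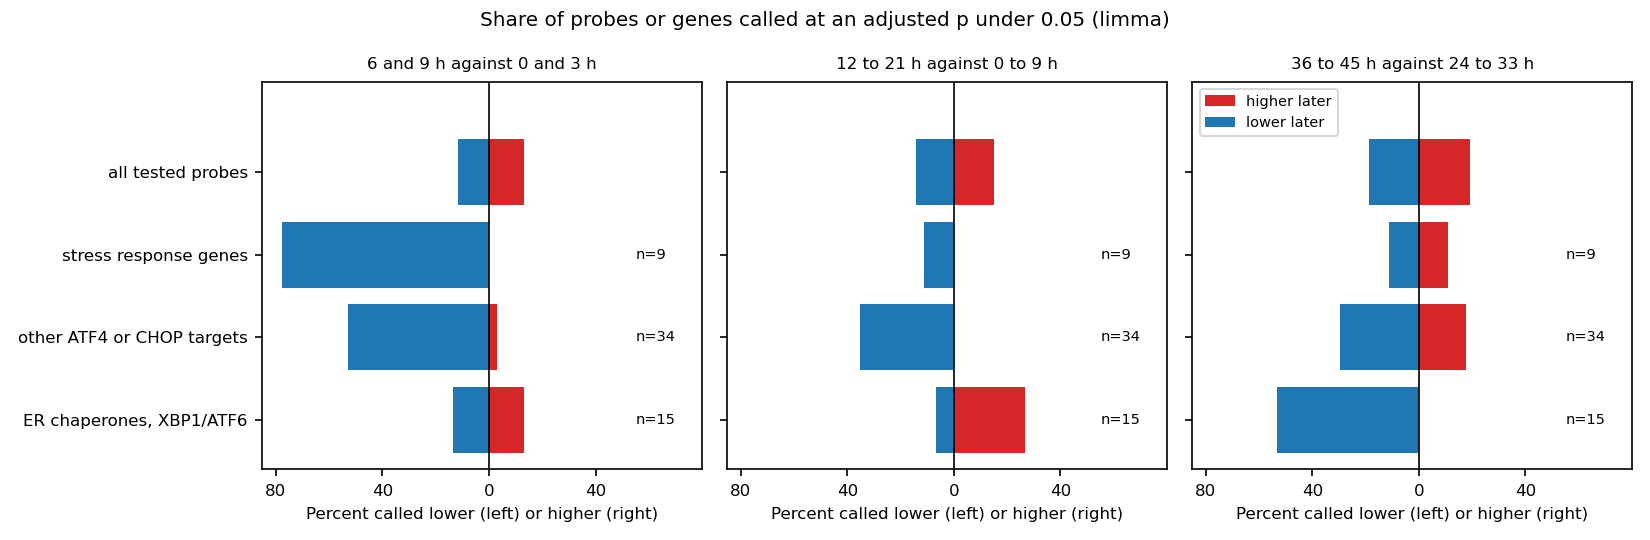
Percent of rows or genes called lower (left, blue) or higher (right, red) at an adjusted p under 0.05 (x axis) in 3 comparisons, for all tested rows, the 9 tested stress response genes and 2 gene lists (y axis; n is the number tested). At 6 and 9 h both the stress response genes and the other targets lie mostly to the left, and at 36 to 45 h the endoplasmic reticulum genes do.

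Upstream of ATF4, a list of eIF2alpha kinases, substrate and phosphatase subunits was followed (12 of 14 tested). It also held GCN1L1, IMPACT and the exchange factor subunits EIF2B1 to EIF2B5. At 6 and 9 h 3 were up and 2 down, against 24.7% of all rows called. As an exception to the naming rule, those up were the kinase EIF2AK2 and the exchange factor subunits EIF2B1 and EIF2B5. The 2 down were the kinase EIF2AK3 (log2 change -0.93) and PPP1R15A (-1.66), which is described above. Against 3 h as the only earlier array, their changes were -0.56 and -1.49. Without the 0 h array 3 were up and 1 down, and EIF2AK3 was no longer called. The list had 1 up and 1 down at 36 to 45 h against 0 to 9 h, against 31.2% of all rows called. These were the heme-regulated kinase EIF2AK1 (0.25, SE 0.09, adjusted p = 0.039) and the exchange factor subunit EIF2B2 (-0.27, SE 0.08, adjusted p = 0.013). Of other C/EBP and ATF family factors (9 of 12 tested), 2 rose and none fell over that span, CEBPD (1.03, SE 0.14, adjusted p = 2.6e-05) and ATF1 (0.67, SE 0.15, adjusted p = 0.0028), against 16.2% of all rows higher.

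Among paralogues of the effectors (5 of 6 tested), some moved when their relatives did and others did not. TRIB1, a paralogue of TRIB3 that the naming rule did not pick and that was added after its values were seen, was at 10.84, 10.96, 9.99 and 10.41 at 0, 3, 6 and 9 h, so that its drop came at the same step as that of TRIB3. At 45 h it was back at 10.94, while TRIB3 stayed below its level at 3 h. CHAC2, the paralogue of CHAC1, was at 6.94 at 0 h and 8.66 at 9 h, and rose by 1.31 (SE 0.21, adjusted p = 0.00029) at 6 and 9 h against 0 and 3 h, before it fell to 6.54 at 45 h. SESN1, the paralogue of SESN2, was at 10.04 at 0 h and 8.69 at 3 h, and like SESN2 was highest on the untreated array. It rose by 0.61 (SE 0.22, adjusted p = 0.047) at 36 to 45 h against 0 to 9 h, and TRIB2 rose by 0.55 (SE 0.11, adjusted p = 0.0011). Of the 5, 2 rose and 1 fell over that span, against 31.2% of all rows called, and 3 rose and 1 fell without the 0 h array.

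Endoplasmic reticulum chaperones and XBP1 or ATF6 branch genes, another arm of the stress response, were followed in the same contrasts, with 15 genes tested. At 6 and 9 h 2 rose and 2 fell, against 24.7% of all rows called, and without the 0 h array 1 rose and 2 fell. The transcription factor XBP1 fell at the step where TRIB3 did, from 10.76 at 3 h to 9.86 at 6 h, with a change of -0.95 (SE 0.12, adjusted p = 2.8e-05), and the co-chaperone DNAJB9 was at 10.24, 9.33 and 8.31 at 0, 3 and 6 h. At 12 to 21 h against 0 to 9 h, 4 rose and 1 fell, against 15.1% and 14.4% of all rows. XBP1 was the gene that fell (-0.60, SE 0.19, adjusted p = 0.025), a call that was lost without the 0 h array (adjusted p = 0.076). Without that array 4 of the list rose and 1, not XBP1, fell, against 14.8% and 14.6% of all rows. The chaperone HSPA5, also known as BiP, was at 9.42 at 9 h and 10.64 at 12 h. DNAJB9 and HSPA5 are outside the naming rule and were added after their values were seen, so no test of their own is given.

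At 36 to 45 h against 24 to 33 h, 8 of the 15 fell and none rose, with a median log2 change of -0.36, against 18.7% of all rows lower. Without the 0 h array 8 fell and 1 rose, against 20.7% and 21.3%. Over the whole span, 36 to 45 h against 0 to 9 h, 5 fell and none rose, against 15% and 16.2% of all rows, and without the 0 h array 8 fell and 1 rose, against 17.9% and 18.2%. In this last contrast XBP1 changed by -1.06 (SE 0.19, adjusted p = 0.00044), the chaperone HYOU1 by -0.84 (SE 0.17, adjusted p = 0.0011) and the calcium-binding chaperone CALR by -0.51 (SE 0.10, adjusted p = 0.0011). The late change of XBP1 against 24 to 33 h did not pass (-0.40, adjusted p = 0.12).

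A list of mTORC1 with its regulators and targets was also followed (8 of 10 tested). At 36 to 45 h against 0 to 9 h, 3 rose and 2 fell, against 16.2% and 15% of all rows. Without the 0 h array 4 rose and 2 fell, against 18.2% and 17.9%. TSC1 and TSC2, the subunits of the complex through which DDIT4 works, changed by 0.93 (SE 0.20, adjusted p = 0.0022) and 0.64 (SE 0.13, adjusted p = 0.0011), and EIF4EBP1, the translation repressor that mTORC1 phosphorylates, by -0.86 (SE 0.13, adjusted p = 6.9e-05). The naming rule picked 16 genes from the lists for this span, and without the 0 h array all 16 kept their direction and their call.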

How the data were processed

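RNA of MCF-10A cells at 16 time points was measured on Illumina human Ref8v2 bead arrays, 1 array per time point. The authors deposited a table of non-normalized intensity and a detection p-value for each row and array; the scanner settings are not given in the sources used here. From these intensities, background was corrected with limma 3.58.1 in R 4.3.3 (normexp, with the negative control level taken from the detection p-values of rows of a single probe), an offset of 16 was added, and arrays were quantile normalized and log2 transformed. The 11957 rows that passed a detection p of 0.05 on 3 or more arrays were tested with lmFit and eBayes with an intensity trend, and p-values were adjusted by Benjamini-Hochberg over all of them. Time was fitted as a natural cubic spline with 3 degrees of freedom, as 4 groups of 4 time points, or, for the first hours, as 8 pairs. Consecutive time points are not replicates: the spread holds change within a group, and p-values measure only that spread. The number of arrays limits the precision.

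The 1.7-fold limit is a number from the study's methods, used there for another purpose. The study chose genes of its HER2-overexpressing cells (MCF10HER2) that changed that much at any time point. Here it is applied to steps between neighbouring arrays of MCF-10A cells. A level not above background is a bound, computed against the higher of the dimmest detected signal of that array and the row's own value. The 10 genes were all named. From each gene list, up to 3 called genes with the greatest change at 36 to 45 h against 0 to 9 h were named, with exceptions stated, and for each tested gene the rows with the highest Pearson r. Members and lists were chosen with earlier results of these data known. The tests were run on simulated data with independent noise, in which 200 of 11957 rows were changed. For a lasting step of 1 log2 unit, the first-hours contrast recovered 72.5% and 12 to 21 h against 0 to 9 h 93.5%. Recovery was 94.5% for 24 to 33 h against 12 to 21 h and 93% for 36 to 45 h against 24 to 33 h. For a straight course that reached 1 log2 unit only at 45 h, the spline recovered 78%. For the same course 36 to 45 h against 0 to 9 h recovered 80%, with a median estimate of 0.80. Brief changes, such as a high 0 h array alone, were not simulated. Alternatives changed the background correction, offset, normalization, filter, prior variance, threshold, curve, contrast and arrays used. The gene lists and likenesses without the 0 h array were added after seeing the data.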

Additional observations from a re-analysis of the deposited data

Results flagged for a closer look

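CHAC1 at 0 h stood apart from 3, 6 and 9 h. It was at 7.24 (log2 normalized intensity) against 5.47 for the nearest of the others, and the gap took 0.925 of the range of the 4 values. The 0 h array is the untreated one, and CHAC1 was above background on no other array. It was 1 of 40 gene and window combinations looked at, and chance alone flags about 1 in 20.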

How the results depend on the processing

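No paired analysis was possible because each time point has 1 array. The counts below are of the 9 tested genes, and the cause of each change was not tested unless the setting itself leaves out arrays or tests more rows. With no background correction, an offset of 50 or detection on all 16 arrays every count was as reported. For the spline, 6 genes were called, and 1 (ASNS) with a straight line in time, against 16.3% of all rows. CEBPB and CEBPG were lost at an adjusted p under 0.01. CEBPB was lost with no intensity trend, and CEBPG with a step between 21 and 24 h added to the spline. When 1 array was left out between 4 and 6 were called. For 6 and 9 h against 0 and 3 h, 7 were called, and 4 with the compared arrays alone, against 7.38% of all rows. ASNS was lost with no intensity trend or an adjusted p under 0.01. With 1 array left out between 6 and 8 were called. For 12 to 21 h against 0 to 9 h, 1 was called, and 2 with median scaling, against 32.1% of all rows. Against 6 and 9 h only, 4 were called (ATF5, CEBPB and CEBPG higher, ASNS lower), against 25.5% of all rows. With 1 array left out between 1 and 3 were called. For 24 to 33 h against 12 to 21 h the count was 0 under each setting. For 36 to 45 h against 24 to 33 h, 2 were called, and 1 with median scaling (38.9% of all rows called) or no filter (20.8%). The count was 0 with no intensity trend (37.3%) or an adjusted p under 0.01 (26.1%). It was 5 with the compared arrays alone (48.6%) and between 0 and 4 with 1 array left out. For 36 to 45 h against 0 to 9 h, 1 was called, and 2 with median scaling (ATF4 and ASNS), against 32% of all rows. With 0 and 3 h against 42 and 45 h, 5 were called, against 30.3% of all rows. With 1 array left out between 1 and 5 were called. Median scaling with the 0 h array left out was chosen after seeing the data. It called 6 for the spline, 0 at 24 to 33 h and 2 at 36 to 45 h against 24 to 33 h (ATF5 and DDIT3). It called 4 at 6 and 9 h, against 15.8% of all rows, and 4 at 12 to 21 h, against 31.8%. At 36 to 45 h against 0 to 9 h it called 5, against 34.6% of all rows.

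Changes of single genes turned direction only where they had not been called. At 6 and 9 h against 0 and 3 h, DDIT4 was at 0.21 and SESN2 at 0.47 against 3 h only, and at 0.20 and 0.45 with median scaling and no 0 h array. With 1 array left out they ran from -0.89 to 0.21 and from -1.96 to 0.47. The SESN2 values in this contrast, and those without the 0 h array in the contrasts with 0 to 9 h, are fitted against arrays on which it was not above background and are no measured change. At 12 to 21 h against 0 to 9 h, median scaling gave 0.021 for CEBPB and 0.026 for CEBPG, and cyclic loess -0.055 for DDIT4. Median scaling with no 0 h array gave ATF4 0.15, DDIT3 0.18, SESN2 0.45 (called), CEBPB 0.17 and CEBPG 0.24. Against 6 and 9 h only, ATF4 was at 0.24, DDIT3 at 0.30, TRIB3 at 0.25, SESN2 at 0.31, CEBPB at 0.32 (called) and CEBPG at 0.36 (called). With 1 array left out, ATF4 ran from -0.33 to 0.016, DDIT3 from -1.17 to 0.063, DDIT4 from -0.046 to 0.32, SESN2 from -0.35 to 0.46, CEBPB from -0.18 to 0.088 and CEBPG from -0.31 to 0.10. At 36 to 45 h against 24 to 33 h, median scaling with or without the 0 h array gave ASNS -0.051 and DDIT4 -0.065. With 1 array left out ASNS ran from -0.00086 to 0.19 and SESN2 from -0.074 to 0.12. At 36 to 45 h against 0 to 9 h, DDIT3 was at -0.043 with no background correction, ATF5 at 0.020 with median scaling and at 0.090 with median scaling and no 0 h array, and SESN2 at 0.31 in that last setting. With 0 and 3 h against 42 and 45 h, DDIT3 was at -0.92, DDIT4 at -0.073 and CEBPB at -0.23 (called). With 1 array left out DDIT3 ran from -0.31 to 0.92, DDIT4 from -0.047 to 0.32 and SESN2 from -0.49 to 0.32. The low signal of CHAC1 and SESN2 against background limits them to bounds on most or several arrays, and with 1 array per time point no single step between arrays can be tested.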
